A study of Homo sapiens with 24 samples.

Results

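The response of T24 cells, a human bladder carcinoma cell line, to clorgyline alone was described across all transcripts of an Illumina HumanHT-12 V4 BeadChip. The comparison held the 2 arrays of clorgyline-treated cells and the 2 arrays of control cells, 4 of the 24 arrays in the series. Clorgyline-treated cells received 10 µM clorgyline every day without 5-Aza-CdR and control cells received neither drug, and both were sampled at day 18. The other 4 arrays labelled T24 were used for the spread between replicates and for a repeat of the same drug on other arrays. They held cells given 1 µM 5-Aza-CdR for 24 hours followed by clorgyline (the combinatorial treatment), and cells given 5-Aza-CdR alone, with 2 arrays each. The question was which genes the monoamine oxidase inhibitor changes by itself.

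Clorgyline irreversibly inhibits monoamine oxidase A, a flavin-dependent enzyme that oxidizes amine neurotransmitters. LSD1, encoded by KDM1A, belongs to the same family of flavin-dependent amine oxidases and removes methyl groups from lysine 4 of histone H3, so several monoamine oxidase inhibitors also inhibit it. 5-Aza-CdR is incorporated into DNA and traps DNA methyltransferases. Immediate early genes, which come up repeatedly here, encode transcription factors such as the subunits of AP-1 and feedback regulators such as the dual-specificity phosphatases, and are switched on within minutes of growth factor or stress signals without new protein synthesis.

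The values are normalized log2 intensities that span 7.92 to 14.77 around a median of 8.10. Most of the 47231 probes thus lay near the lowest signal, where a difference is compressed. Of these probes, 30113 carried a single gene symbol for 20046 genes, and 5764 averaged at least 9 over the 8 T24 arrays. The replicate arrays correlated at 0.994 in clorgyline-treated cells and 0.997 in control cells, against 0.989 to 0.991 between the treatments. Of 10 markers listed for T24, 6 averaged above 9, among them KRT19 at 11.67, CAV1 at 11.53 and VIM at 10.80, while KRT7 was at 8.29. Of 8 urothelial differentiation markers only PPARG was above 9, none of 9 myeloid and none of 8 fibroblast markers was, and of 10 intestinal markers EPCAM was, at 12.69. No marker of these lists differed between clorgyline and control at an adjusted p under 0.05. Across probes, the arrays labelled T24 correlated at a median of 0.985 with the treated arrays labelled HCT116, against 0.909 with the controls labelled HCT116, and the cells are called T24 here as labelled. Nothing in the labels says that replicates were separate cultures, so p values measure the spread between arrays, which may be technical.

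Clorgyline mainly lowered transcripts. The study's methods called a transcript past 2-fold with p under 0.01, taken here without adjustment. At these limits 23 probes were lower in clorgyline-treated than in control cells (0.0487% of all probes) and 0 were higher (0%). By limma with Benjamini-Hochberg adjustment over all probes and no limit on the fold, 131 probes were lower (0.277%) and 45 were higher (0.0953%). The lower probes covered 93 named genes with 36 probes not named here, had a median log2 difference of -0.62 and reached -2.02. The higher probes covered 37 named genes with 8 not named here, had a median of 0.36 and reached 0.73. At an unadjusted p under 0.01, 1039 probes were lower (2.2%) and 829 higher (1.76%), and at an unadjusted p under 0.05 the numbers were 2400 (5.08%) and 2390 (5.06%). The excess of lower probes therefore grew with the size of the difference, as the plot of probe numbers by fold shows. The counts at an adjusted p under 0.05 rested on both control arrays, since 5 probes were lower and 0 higher without control replicate 1, and 2 and 0 without control replicate 2. Without clorgyline replicate 1 there were 31 lower and 5 higher probes, and without clorgyline replicate 2 there were 27 and 15.

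**Figure D1:**
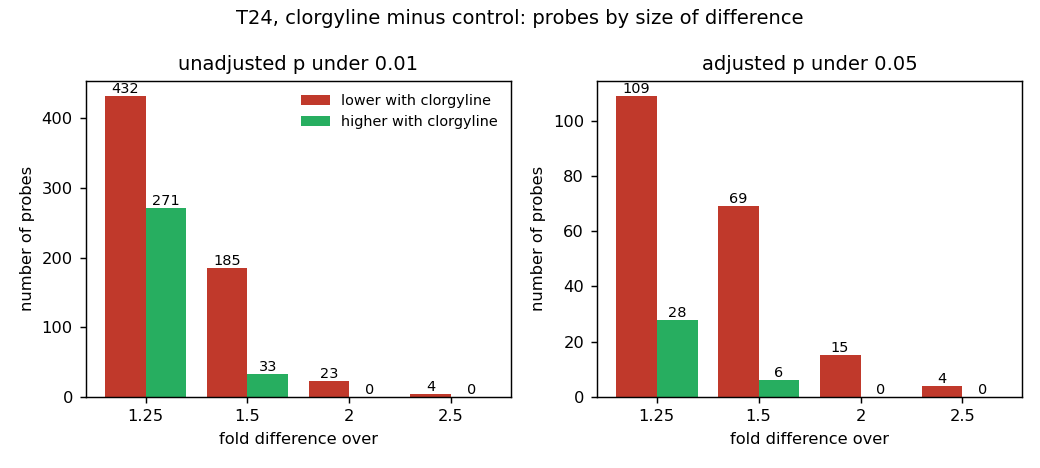
Number of probes (vertical axis) past each fold difference (horizontal axis) that were lower (red) or higher (green) in clorgyline-treated than in control T24 cells, at an unadjusted p under 0.01 (left) and an adjusted p under 0.05 (right). Beyond 1.5-fold there were 185 lower and 33 higher probes at p under 0.01, and 69 lower and 6 higher probes at adjusted p under 0.05.

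The 2 largest falls were those of SNORD3D and SNORD3A. The SNORD3 genes encode U3, the small nucleolar RNA that guides the first cleavages of the ribosomal RNA precursor. SNORD3D stood at 9.27 and 9.57 in clorgyline-treated cells, against 11.63 and 11.25 in control cells. Its log2 difference was -2.02 (SE 0.24, adjusted p = 0.0425 from limma), a 4.06-fold fall. SNORD3A stood at 9.27 and 9.30 in clorgyline-treated cells, against 10.92 and 10.89 in control cells (log2 difference -1.62, SE 0.15, adjusted p = 0.0225 from limma). SNORD3C was at 8.60 and 8.68 with clorgyline, against 9.95 and 9.91 in control cells (log2 difference -1.29, SE 0.09, adjusted p = 0.0118 from limma). In all 3 genes both clorgyline arrays lay below both control arrays, as in each of the 1039 probes lower at an unadjusted p under 0.01. These genes lie on chromosome 17 and are near-identical copies, so their probes can report the same RNA and are not independent. In 5-Aza-CdR treated cells, clorgyline gave smaller differences of -0.49 for SNORD3D, -0.61 for SNORD3A and -0.41 for SNORD3C, none at an adjusted p under 0.05 (0.477, 0.145 and 0.102 from limma). The difference between these effects without and with 5-Aza-CdR did not pass either (adjusted p = 0.202, 0.189 and 0.0728).

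Other small noncoding RNAs were lower as well. The list of small noncoding RNAs held 72 measured genes, with SNORD3D, SNORD3A and SNORD3C among them. Of these, 7 fell at an adjusted p under 0.05 and 0 rose, against 0.424% and 0.12% of all 20046 genes with 1 probe each. The SNORD3 copies, which are not independent, are among the 7 and enter the list counts and medians below. The other members that passed were RNU4-2, RNU4-1, SCARNA9 and RPPH1. Small noncoding RNAs outside these counts were also lower at an adjusted p under 0.05, with log2 differences of -0.75 for RNVU1-18, -0.41 for SCARNA4 and -0.22 for SNORD11. At an unadjusted p under 0.01, 22 (30.6%) were lower and 4 (5.56%) higher, against 3.4% and 2.44% of all genes. RNU4-2, a gene for the U4 spliceosomal RNA, was at 8.33 and 8.41 in clorgyline-treated cells, against 9.04 and 9.03 in control cells (log2 difference -0.67, SE 0.04, adjusted p = 0.0066 from limma). RNU4-1, another U4 gene, fell by 0.62 on the log2 scale, SCARNA9, a small Cajal body RNA, by 0.45, and RPPH1, the RNA of ribonuclease P, by 0.33. The other falls past a fold of 2 were those of SCARNA8 and SCARNA16, of the small Cajal body RNAs that guide the modification of spliceosomal RNAs. SCARNA16 was at 8.51 and 8.50 with clorgyline, against 9.78 and 9.60 in control cells (adjusted p = 0.0579), and SCARNA8 at 9.19 and 9.16 with clorgyline, against 10.63 and 10.18 in control cells (adjusted p = 0.109). RN7SL1, the RNA of the signal recognition particle and the brightest of the named members, was at 13.48 and 13.20 with clorgyline, against 14.02 and 13.96 in control cells (log2 difference -0.65, adjusted p = 0.0688 from limma). The direction was not shared by all, since SNORA33, SNORA24, SNORA73A and SNORA73B, small nucleolar RNAs of the H/ACA class, had log2 differences of 0.45, 0.25, 0.19 and 0.21. Of the 16 members averaging at least 9, 9 were lower and 0 higher at an unadjusted p under 0.01, against 7.91% and 6.36% of the 4070 genes at that level. Their median log2 difference was -0.58, against 0.02 over those genes, and over all 72 members the median was -0.07, against 0.00 over all genes.

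**Figure D2:**
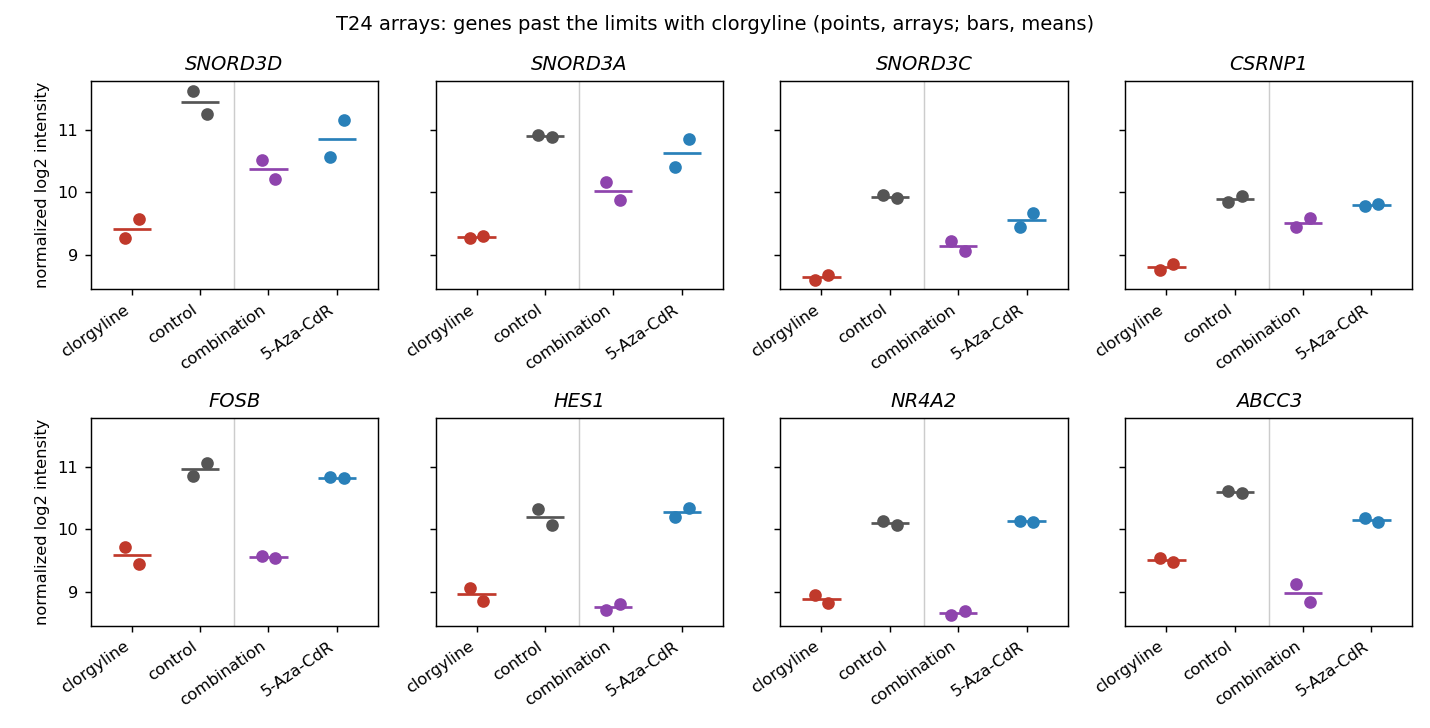
Normalized log2 intensity (vertical axis) of 8 genes past the limits of the methods on the 8 T24 arrays, as points with bars for the mean of 2 arrays, for clorgyline, control, the combinatorial treatment and 5-Aza-CdR from left to right. FOSB, HES1, NR4A2 and ABCC3 are lower in both clorgyline groups than in the group without it, while the SNORD3 genes and CSRNP1 have smaller differences in the pair with 5-Aza-CdR.

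Immediate early genes were another group that fell, with 6 of the 93 named lower genes. FOSB, a subunit of AP-1, stood at 9.71 and 9.44 in clorgyline-treated cells, against 10.85 and 11.06 in control cells. The log2 difference was -1.38 with an SE of 0.10 (adjusted p = 0.0132 from limma). NR4A2, an orphan nuclear receptor induced as an early response gene, stood at 8.94 and 8.81 with clorgyline, against 10.13 and 10.06 in control cells (log2 difference -1.22, SE 0.05, adjusted p = 0.00413). HES1, a repressor downstream of Notch, was at 9.05 and 8.85 with clorgyline, against 10.32 and 10.07 in control cells (log2 difference -1.24, SE 0.11, adjusted p = 0.016). CSRNP1, a nuclear protein encoded by an early response gene, was at 8.77 and 8.86 with clorgyline, against 9.85 and 9.94 in control cells (log2 difference -1.08, SE 0.06, adjusted p = 0.0066). The 2 groups did not overlap in any of these genes, nor in any probe at an unadjusted p under 0.01. The same held for 19340 of all 47231 probes. SIK1, a salt-inducible kinase that restrains transcription driven by cyclic AMP, was at 8.31 and 8.29 with clorgyline, against 8.56 and 8.59 in control cells, and SPRY4, an inhibitor of receptor tyrosine kinase signaling, at 9.49 and 9.50 with clorgyline, against 9.73 and 9.70 in control cells. Both differences were small and passed, at -0.27 and -0.23 (adjusted p = 0.0142 and 0.0382 from limma). BHLHE40, a helix-loop-helix repressor, was past a fold of 2 with 10.76 and 10.97 in clorgyline-treated cells, against 12.10 and 11.84 in control cells, at an adjusted p of 0.0605.

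Of 75 AP-1 and immediate early genes measured, 6 fell and 0 rose at an adjusted p under 0.05. At an unadjusted p under 0.01, 24 (32%) were lower and 3 (4%) higher, and 63 of the 75 differences were negative. The same limit was passed by 3.4% and 2.44% of all genes, of which 10018 of 20046 had a negative difference. The median log2 difference was -0.12 over all 75 members. Among the 42 averaging at least 9 the median was -0.34, 39 were negative, and 18 were lower and 2 higher at an unadjusted p under 0.01, against 7.91% and 6.36% of genes at that level. The members at an unadjusted p under 0.01 that did not pass the adjustment had values of -0.98 for ATF3, a stress-induced member of the ATF/CREB family, and -0.95 for PPP1R15A, which brings a phosphatase to eIF2α. Those of the phosphatases of MAP kinases were -0.90 for DUSP5 and -0.79 for DUSP1. NFKBIA, the inhibitor of NF-kB, had -0.75, GADD45B -0.74, the inhibitors of helix-loop-helix factors ID3 and ID1 -0.70 and -0.66, KLF4 -0.56 and JUN, the partner of FOSB in AP-1, -0.48. On the other side stood EGR1, a zinc finger early response factor, at 12.26 and 12.14 with clorgyline against 11.88 and 11.69 in control cells, and PHLDA1 at 12.35 and 12.32 with clorgyline against 11.79 and 11.79 in control cells. Their log2 differences were 0.42 and 0.55 (adjusted p = 0.0825 and 0.0579 from limma), so the early genes did not all lie on the same side. Averaged over the 75 genes, the log2 level was 9.42 and 9.35 in clorgyline-treated cells, against 9.68 and 9.64 in control cells.

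The RefSeq promoters of these genes are shown because members that moved together may carry common motifs. Each sequence runs from 250 bases before to 50 bases after the annotated start, and 7 of the 15 named genes past the methods' limits and 5 of the 6 early genes that fell had an entry. Capitals mark CCAAT boxes (CCAAT) and the half-site TGACG of the cyclic AMP response element, on either strand, and the half-site was added after the sequences were seen.
FOSB, GRCh38.p14 chr19:45467746-45468045, plus strand: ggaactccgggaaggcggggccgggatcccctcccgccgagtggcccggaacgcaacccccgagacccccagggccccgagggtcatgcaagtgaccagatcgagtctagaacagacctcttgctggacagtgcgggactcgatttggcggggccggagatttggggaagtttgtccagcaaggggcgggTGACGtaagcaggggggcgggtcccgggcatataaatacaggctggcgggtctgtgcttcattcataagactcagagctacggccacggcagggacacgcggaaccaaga
HES1, GRCh38.p14 chr3:194135898-194136197, plus strand: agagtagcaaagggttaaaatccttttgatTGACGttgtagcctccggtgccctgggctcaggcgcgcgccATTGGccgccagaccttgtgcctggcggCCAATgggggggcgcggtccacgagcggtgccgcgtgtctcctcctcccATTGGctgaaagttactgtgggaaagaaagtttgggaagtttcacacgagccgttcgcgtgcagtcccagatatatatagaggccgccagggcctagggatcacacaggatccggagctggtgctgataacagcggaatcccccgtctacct
SIK1, GRCh38.p14 chr21:43427082-43427381, minus strand: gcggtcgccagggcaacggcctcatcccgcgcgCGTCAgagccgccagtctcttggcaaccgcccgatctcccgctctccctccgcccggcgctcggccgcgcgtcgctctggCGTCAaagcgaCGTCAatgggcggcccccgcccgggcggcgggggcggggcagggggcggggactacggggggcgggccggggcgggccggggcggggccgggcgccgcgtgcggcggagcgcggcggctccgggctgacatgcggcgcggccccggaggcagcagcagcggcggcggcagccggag
The full response element TGACGTCA, the AP-1 site TGANTCA and the CArG box bound by serum response factor, searched on both strands, matched none of the 5 early gene promoters within these windows. Of 35116 promoters of this length, 1.85% hold the full element, 7.71% the AP-1 site and 1.29% the CArG box. The half-site, which is contained in the full element, occurred in 4 of the 5 (FOSB, HES1, SIK1 and SPRY4), against 24.6% of all promoters. In FOSB it lies 60 bases before the start, and SIK1 holds 3 copies and HES1 1. HES1 alone of the 5 holds CCAAT boxes, with 3 matches, against 34.6% of all promoters with at least 1. A match is a description of the letters only.

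The remaining genes past the limits of the methods had varied functions. ABCC3, a drug efflux transporter, stood at 9.54 and 9.48 in clorgyline-treated cells, against 10.61 and 10.57 in control cells (log2 difference -1.08, SE 0.09, adjusted p = 0.0142 from limma). NPIPB5 was at 9.48 and 9.45 with clorgyline, against 10.60 and 10.44 in control cells, and NPIPB3 at 10.19 and 9.85 with clorgyline, against 11.31 and 11.20 in control cells (adjusted p = 0.0212 and 0.0472). These genes belong to a family of near-identical copies on chromosome 16, so the probes cannot be assigned to a single copy with certainty. LAMA5, a laminin chain of basement membranes, was at 10.82 and 10.08 with clorgyline, against 11.67 and 11.64 in control cells, with a wide spread between the clorgyline arrays and an adjusted p of 0.119. TAF1C, a subunit of the factor that recruits RNA polymerase I to ribosomal DNA, was at 9.32 and 9.46 with clorgyline, against 10.41 and 10.59 in control cells (adjusted p = 0.11). The other 8 of the 23 probes carried no single symbol and are not named here.

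Several falls with very small errors were found on a single probe of a gene. AOC4P, a pseudogene of the copper amine oxidases, had the lowest p of all, with 9.28 and 9.27 in clorgyline-treated cells, against 10.06 and 10.09 in control cells (log2 difference -0.80, SE 0.02, adjusted p = 6.7e-04 from limma). MCM8, a helicase of meiotic and repair recombination, was at 10.86 and 10.76 with clorgyline, against 11.72 and 11.69 in control cells, and DMC1, the meiotic recombinase, at 9.98 and 9.91 with clorgyline, against 10.76 and 10.93 in control cells. Both had a log2 difference of -0.90 (adjusted p = 0.00526 and 0.0108). MAGT1, a subunit of an oligosaccharyltransferase that also affects magnesium transport, fell by 0.84 on the log2 scale, the pseudogenes ZNF876P and TUBA3FP by 0.81 and 0.68, CALB2, the calcium-binding protein calretinin, by 0.77, TCAF1, a TRP channel partner, by 0.69 and CHD9, a chromodomain helicase, by 0.37. Of the 93 lower genes, 52 had a probe besides that of smallest p, and in 34 of these (65.4%) all the others averaged under 8.5, DMC1, MCM8, TCAF1, TUBA3FP, ZNF876P, CALB2 and NPIPB3 among them. The same held for 6 of 24 higher genes (25%) and for 766 of 1741 genes whose brightest probe averaged at least 9 (44%). The lower and higher genes had no such limit on the level, so these shares are not of like sets. INIP was lower on a probe (-0.84) and higher on another (0.29), and counts in both directions. In 8 of the 52, NR4A2, ITGB4 and SIK1 among them, another probe was lower at an unadjusted p under 0.01. Which RNA such a bright probe reports was not tested.

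Outside these groups, GDF15, a stress-induced cytokine of the TGF-beta family, was at 8.47 and 8.44 in clorgyline-treated cells, against 9.14 and 9.12 in control cells (log2 difference -0.67, SE 0.06, adjusted p = 0.0142 from limma). ITGB4, the integrin of hemidesmosomes, was at 8.67 and 8.53 with clorgyline, against 9.27 and 9.17 in control cells (log2 difference -0.63, adjusted p = 0.0257). Of the 43 targets of ATF4 and the amino acid response, 0 passed the adjustment in either direction. At an unadjusted p under 0.01, 9 (20.9%) were lower and 2 (4.65%) higher, against 3.4% and 2.44% of all genes and 7.91% and 6.36% of genes averaging at least 9, as 28 of the members do. They were led by the transporter SLC38A2 (-0.78), asparagine synthetase ASNS (-0.74), the serine synthesis enzyme PSAT1 (-0.61), the aminoacyl-tRNA synthetases AARS1 (-0.61) and YARS1 (-0.56) and the factor DDIT3 (-0.41). The median was -0.04 over all 43 members, -0.03 without control replicate 2 and -0.09 without clorgyline replicate 1, and -0.16 over the 28 averaging at least 9. ER folding proteins were divided, with 4 of 28 lower and 4 higher at an unadjusted p under 0.01. HSPA5, the main chaperone of the ER lumen, was at 9.76 and 9.69 with clorgyline, against 10.73 and 10.38 in control cells (log2 difference -0.83, adjusted p = 0.0541), while SDF2L1, its partner, had a log2 difference of 0.35.

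The higher transcripts were smaller shifts. CIP2A, an inhibitor of protein phosphatase 2A, was at 9.15 and 9.15 in clorgyline-treated cells, against 8.46 and 8.47 in control cells (log2 difference 0.68, SE 0.03, adjusted p = 0.00518 from limma). CTSZ, a lysosomal cathepsin, was at 9.64 and 9.57 with clorgyline, against 8.91 and 8.96 in control cells, and KPNA2, a nuclear import receptor, at 10.77 and 10.86 with clorgyline, against 10.23 and 10.20 in control cells (log2 differences 0.67 and 0.60). RPS21, a protein of the small ribosomal subunit, was at 11.34 and 11.49 with clorgyline, against 10.83 and 10.74 in control cells (log2 difference 0.63, adjusted p = 0.0404). The other genes of lowest p had differences from 0.29 to 0.48. They were HMMR, FKBP2, an ER prolyl isomerase, the pseudogene ARHGAP27P1, HSP90AA1, WLS, which carries Wnt ligands to the surface, TMEM70, an ATP synthase assembly factor, the sorting nexin SNX3, LEO1 of the PAF1 elongation complex and MAGEA6, a cancer testis antigen with near-identical copies.

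Genes of DNA replication and mitosis shifted upward by small amounts. Of 94 measured, 81 differences were positive, 14 (14.9%) were higher at an unadjusted p under 0.01 and 1 (1.06%) was lower, CDC25B, a phosphatase that activates cyclin-dependent kinases, at -0.43. Of all genes 2.44% were higher and 3.4% lower, and of those averaging at least 9, as 70 of the 94 members do, 6.36% and 7.91%, with 2147 of 4070 differences positive. At an adjusted p under 0.05 only HMMR, a spindle-associated hyaluronan receptor, rose, with 9.57 and 9.50 in clorgyline-treated cells against 9.04 and 9.06 in control cells (log2 difference 0.48, SE 0.03, adjusted p = 0.0118 from limma). Below that limit the largest values were 0.73 for the survivin gene BIRC5, 0.67 for UHRF1, which brings DNMT1 to replicated DNA, and 0.50 for the securin gene PTTG1. CENPA, the histone of centromeres, had 0.44, MCM10, a replication initiation factor, 0.43, the polymerase alpha subunit POLA1 0.38 and cyclin B1, CCNB1, 0.35. These values are of the brightest probe, and a dimmer probe had 0.13 for BIRC5, 0.01 for CENPA and 0.16 for MCM10. The mean log2 level over the 94 genes was 9.99 and 9.93 in clorgyline-treated cells, against 9.80 and 9.80 in control cells, and the median difference was 0.13, against 0.00 over all genes. With 5-Aza-CdR present the mean level was 9.86 and 9.86 with the combinatorial treatment, against 9.89 and 9.85 with 5-Aza-CdR alone, with a median difference of -0.01. By limma, the test of the difference between the 2 effects passed for 0 of the 94 genes after adjustment. The difference over the list was not tested.
The HMMR promoter is shown because the cell cycle element CHR (TTTGAA or TTTAAA) and CCAAT boxes, both marked in capitals, are common in genes of mitosis.
HMMR, GRCh38.p14 chr5:163460382-163460681, plus strand: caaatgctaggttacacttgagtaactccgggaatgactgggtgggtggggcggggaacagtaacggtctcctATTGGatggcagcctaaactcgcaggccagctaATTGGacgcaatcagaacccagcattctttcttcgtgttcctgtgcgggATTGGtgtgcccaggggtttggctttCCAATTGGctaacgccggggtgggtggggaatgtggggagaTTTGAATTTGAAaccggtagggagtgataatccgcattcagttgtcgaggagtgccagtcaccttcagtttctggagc
It holds 2 adjoining TTTGAA matches, the first 28 bases before the start, and 5 CCAAT matches over both strands, with no TTTAAA. Of all promoters of this length 15.2% hold TTTGAA and 12.2% hold TTTAAA.

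**Figure D3:**
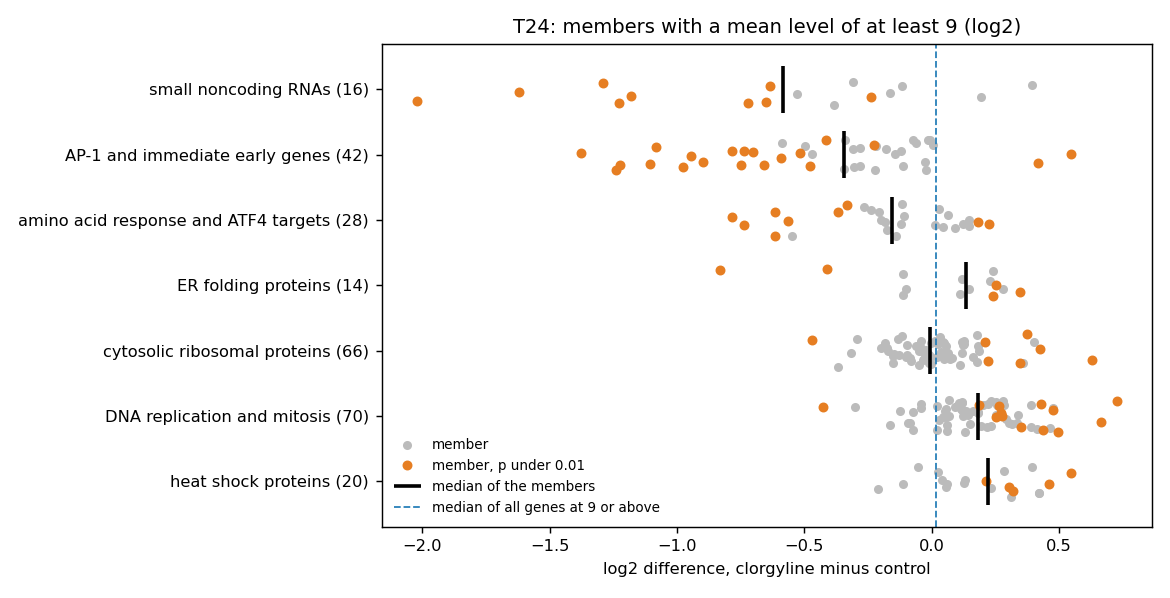
Log2 difference between clorgyline-treated and control T24 cells (horizontal axis) for the members of 7 gene lists averaging at least 9, with the number of such members in parentheses. Orange points passed an unadjusted p under 0.01, black bars mark list medians and the dashed line the median of all genes at that level, 0.02. The medians run from -0.58 for small noncoding RNAs and -0.34 for immediate early genes to 0.18 for DNA replication and mitosis and 0.22 for heat shock proteins.

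Heat shock proteins also lay above zero. Of 31 measured, 24 differences were positive, 6 (19.4%) were higher at an unadjusted p under 0.01 and 0 lower. The share of genes higher was 2.44% over all and 6.36% over those averaging at least 9, as 20 of the 31 do. DNAJB1, a co-chaperone of HSP70, rose to 10.38 and 10.38 in clorgyline-treated cells, against 10.10 and 10.05 in control cells (log2 difference 0.30, adjusted p = 0.0404 from limma). HSP90AA1, the inducible cytosolic HSP90, rose on one of its probes to 13.35 and 13.29 with clorgyline, against 12.89 and 12.83 in control cells (log2 difference 0.46, adjusted p = 0.0126). On its brightest probe the difference was also 0.46, at an adjusted p of 0.11. HSPA1B, an inducible HSP70, had 0.55 (adjusted p = 0.136). The median was 0.08 over all 31 members, moving from 0.05 without clorgyline replicate 1 to 0.17 without clorgyline replicate 2, and 0.22 over the 20 averaging at least 9.

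The drug targets themselves did not pass the test. KDM1A was at 10.81 and 10.84 with clorgyline, against 10.50 and 11.04 in control cells, and MAOA at 9.19 and 8.95 with clorgyline, against 9.26 and 9.31 in control cells. Their log2 differences of 0.06 (SE 0.16) and -0.21 (SE 0.14) were within the spread between arrays, as were 0.04 for MAOB, which lay near background, and 0.05 for DNMT1 (adjusted p from 0.727 to 0.956). Among the other lists, cholesterol synthesis had 2 of 34 genes (5.88%) lower at an unadjusted p under 0.01. Interferon-stimulated genes had 3 of 74 lower (4.05%) and 1 higher (1.35%), and cancer testis antigens 3 of 93 higher (3.23%). Histones had 1 of 66 lower (1.52%) and 4 higher (6.06%). Cytosolic ribosomal proteins, of which 66 of 69 averaged at least 9, had 3 lower (4.35%) and 6 higher (8.7%). Of all genes 3.4% were lower and 2.44% higher, and of those averaging at least 9, 7.91% and 6.36%. The medians of these lists lay between -0.01 and 0.02 over all members, and over members averaging at least 9 that of the 10 histone genes was 0.18. The remaining lists, which covered p53 targets, ribosome biogenesis, the respiratory chain, hypoxia, cytokines, epithelial, mesenchymal and cytoskeletal genes, the LSD1 complex, DNA methyltransferases and metallothioneins, had medians from -0.03 to 0.06 over all members. Over their brighter members the medians ran from -0.33 for 4 cytokine and NF-kB genes, with -0.17 for 8 p53 targets and -0.13 for 11 epithelial genes and 13 genes of the LSD1 complex list, to 0.18 for 4 metallothioneins. GTSF1, TKTL1, PAGE2B, IFI6, IFI27, IFIT1 and H2BC12, genes the study singles out, had log2 differences between -0.07 and 0.18 by clorgyline alone. None passed the adjustment.

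Whether the same changes appeared on other arrays was examined with the combinatorial treatment against 5-Aza-CdR alone. This is clorgyline against no clorgyline in cells that had received 5-Aza-CdR. It compares none of the arrays of the main comparison, but both take their spread from the same 8 arrays. A probe thus has the same SE in both, 0.10 for FOSB. Probes called with a small SE in the first therefore pass more easily in the second. At an adjusted p under 0.05, 252 probes (0.534%) were lower and 422 (0.893%) higher in the cells that also received clorgyline. Of the 131 probes lower by clorgyline alone, 98 were lower here too, 45 of them at an adjusted p under 0.05, and 5 were higher at that limit. Of the 45 higher probes, 34 were higher here, 11 at an adjusted p under 0.05, and 2 were lower at that limit. Over all 47231 probes, 25045 had the same direction in the 2 comparisons. Across all 47231 probes the log2 differences of the 2 comparisons correlated at 0.22, as a description. Of the 15 named genes past the methods' limits, 5 fell again at an adjusted p under 0.05, a count that was 8 with all 24 arrays in the fit, 10 with bright probes only and 11 with a robust spread and a trend. TAF1C stood on the other side, with a log2 difference of 0.81 (adjusted p = 0.158).

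These 5 were FOSB, HES1, NR4A2, ABCC3 and NPIPB5. FOSB was at 9.56 and 9.54 with the combinatorial treatment, against 10.83 and 10.81 with 5-Aza-CdR alone (log2 difference -1.27, adjusted p = 0.00526 from limma). HES1 was at 8.70 and 8.79 with the combinatorial treatment, against 10.19 and 10.34 with 5-Aza-CdR alone. NR4A2 was at 8.62 and 8.69 with the combinatorial treatment, against 10.13 and 10.12 with 5-Aza-CdR alone, and ABCC3 at 9.12 and 8.84, against 10.18 and 10.10 with 5-Aza-CdR alone. The genes were picked here for passing in this comparison, so arrays that lie apart add no support. The log2 differences of -1.52, -1.47 and -1.17 were set beside -1.24, -1.22 and -1.08 without 5-Aza-CdR, and the test of the difference between the 2 effects did not pass (adjusted p = 0.633, 0.334 and 0.896). HSPA5, GDF15 and SIK1 fell here as well, by 1.05, 0.85 and 0.35 on the log2 scale (adjusted p = 0.0127, 0.00309 and 0.00282). CIP2A, KPNA2, FKBP2, CTSZ, RPS21 and MAGEA6 rose again, by 0.60, 0.62, 0.52, 0.50, 0.48 and 0.34.

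Other changes differed between cells without and with 5-Aza-CdR. The difference between the 2 clorgyline effects passed an adjusted p of 0.05 for 152 probes in the upward direction (0.322% of all probes) and 25 in the downward direction (0.0529%). Among the 131 lower probes it passed for 32, in 31 of which the fall was smaller, absent or turned to a rise with 5-Aza-CdR, and among the 45 higher probes for 7, whose rise was smaller, absent or turned to a fall. AOC4P was at 10.04 and 10.05 with the combinatorial treatment, against 9.83 and 9.84 with 5-Aza-CdR alone, a rise of 0.21 (adjusted p = 0.0102 from limma) where clorgyline alone had given a fall. DMC1, TUBA3FP, ZNF876P, MCM8 and MAGT1 had differences of 0.12, 0.03, -0.10, -0.20 and -0.25, and CSRNP1 of -0.28. The higher genes SNX3, HSP90AA1, TMEM70, ARHGAP27P1, LEO1 and DNAJB1 had differences from -0.20 to 0.05 with 5-Aza-CdR. The genes were chosen for a change by clorgyline alone, which favours a smaller value in the other comparison.

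**Figure D4:**
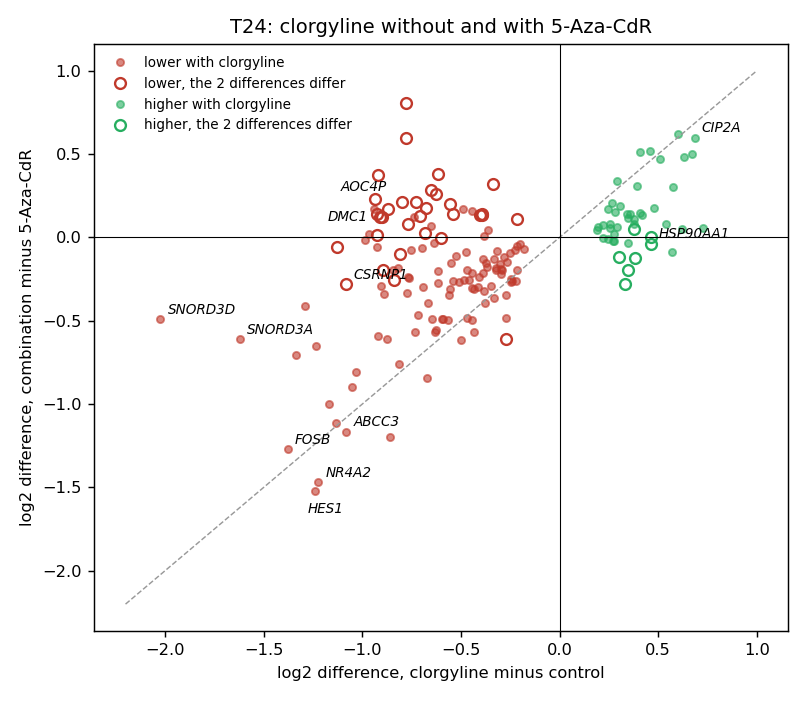
Log2 difference of clorgyline against control (horizontal axis) and of the combinatorial treatment against 5-Aza-CdR (vertical axis) for the 131 lower (red) and 45 higher (green) probes, with open circles where the 2 differences differ at an adjusted p under 0.05 and a dashed line of equality. FOSB, NR4A2, HES1 and ABCC3 lie near the line, and AOC4P and DMC1 lie at or above zero on the vertical axis.

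In HL60, a promyelocytic leukemia cell line given clorgyline at the same dose, some of the same early genes were higher. HL60 arrays were normalized apart from T24 arrays, so the values stand side by side with no test between the lines. Of the 15 named genes past the limits in T24, 3 were higher in HL60 at an adjusted p under 0.05, against 0.453% of all probes. FOSB was at 14.84 and 14.57 in clorgyline-treated HL60 cells, against 12.75 and 12.30 in HL60 control cells (log2 difference 2.18, adjusted p = 1.3e-04 from limma). NR4A2 was at 10.96 and 10.49 in clorgyline-treated HL60 cells, against 9.66 and 9.48 in HL60 control cells (log2 difference 1.15), and BHLHE40 at 10.43 and 10.43 with clorgyline, against 9.46 and 9.42 in HL60 control cells (log2 difference 0.99). DUSP1 and JUN had log2 differences of 3.02 and 2.99 in HL60, KLF4 1.58, PPP1R15A 1.40 and ATF3 0.81, each at an adjusted p under 0.05 in that line. These genes were picked from the list of early genes, which was not counted as a whole in HL60. Other early genes lower in T24 did not pass in HL60, with 0.23 for DUSP5, -0.10 for HES1, -0.06 for GADD45B and -0.02 for ID3. The SNORD3 genes had differences from 0.15 to 0.24 in HL60, none past the test.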

How the data were processed

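RNA was hybridized to Illumina HumanHT-12 V4 BeadChips. Per the labels and the methods, the authors processed the T24 bead intensities with lumi 2.6.0 (HL60 with 2.8.0), applied a log2 transformation with Robust Spline Normalization, and deposited these log2 values. Background correction and probe filtering are not given in the sources used here. The sorted values of the 8 T24 arrays differ by at most 0.0032, so the arrays carry no information on total RNA per cell. limma 3.58.1 in R 4.3.3 was fitted to the 8 arrays with a mean per condition, which leaves 4 residual degrees of freedom, and p values were adjusted over all 47231 probes. The script was tested on simulated data. Gene lists used the brightest probe of each gene and were described by counts and medians. No test of a list was made. The array number limits the precision. Probe symbols came from the platform annotation, in which 8 probes had several symbols and 17110 were not listed. Members, lists and rules were chosen with earlier results of these data known. Named genes are those past the methods' limits, the 12 lower and 12 higher genes of smallest p at an adjusted p under 0.05, up to 4 members per list (more where a list moved together), and the drug targets and genes the study names. Alternatives changed normalization, centring, arrays in the fit, spread model, replicate block, dim probes, probes per gene and limits, and left out each array. All columns could be mapped to samples. Promoters are from RefSeq, GRCh38.p14.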

Additional observations from a re-analysis of the deposited data

Results flagged for a closer look

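The effect of clorgyline differed between T24 cells without and with 5-Aza-CdR for 17 named genes, by limma at an adjusted p under 0.05. Over all 47231 probes this test of the difference passed for 152 upward (0.322%) and 25 downward (0.0529%). Genes lowered or raised by clorgyline alone were named for that change, which enters the difference with the opposite sign and favours such a result. The value given is the effect with 5-Aza-CdR minus the effect without it. For genes that clorgyline alone lowered it was 1.02 for DMC1, 1.01 for AOC4P, 0.80 for CSRNP1, 0.71 for TUBA3FP, 0.71 for ZNF876P, 0.70 for MCM8 and 0.59 for MAGT1. For genes that clorgyline alone raised it was -0.54 for LEO1, -0.50 for TMEM70, -0.50 for HSP90AA1, -0.46 for ARHGAP27P1, -0.42 for DNAJB1 and -0.33 for SNX3. For genes the study names it was 2.52 for IFI27, 2.40 for H2BC12, 2.24 for TKTL1 and 2.02 for PAGE2B. Each of these changed little by clorgyline alone. The study drew them from genes up-regulated by the combinatorial treatment on these T24 arrays, so a positive value was favoured in advance.

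Of the 15 named genes lower past the limits in T24, 3 were higher with clorgyline in HL60 at an adjusted p under 0.05 by limma, against 0.453% of all probes. The difference between the cell lines was not tested. The HL60 log2 differences were 2.18 for FOSB, 1.15 for NR4A2 and 0.99 for BHLHE40. None of the rest passed in HL60 in either direction. Among them CSRNP1 had 0.39 and NPIPB5 0.10 (adjusted p = 0.147 and 0.822 from limma in HL60), and HES1 had -0.10.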

How the results depend on the processing

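The numbers at the methods' limits, 23 lower and 0 higher, stayed at 23 and 0 with only the control and clorgyline arrays, with all 24 arrays, with a trended and robust spread and with a second quantile normalization. They were 15 and 0 with 1 probe per gene, 2 and 0 with an adjusted p under 0.01, and 185 and 33 with a fold over 1.5. The numbers at an adjusted p under 0.05, 131 lower and 45 higher, were 277 and 187 with only the 4 control and clorgyline arrays, 35 and 13 with all 24 arrays, 407 and 158 with a robust spread and a trend, 228 and 79 with bright probes only, 72 and 20 with 1 probe per gene, 14 and 2 at an adjusted p under 0.01, and 377 and 245 at an adjusted p under 0.1. The titles share replicate numbers, whose deviations correlated at 0.058 between clorgyline and control, so the numbers were not taken as pairs. With a replicate block there were 23 and 0 at the methods' limits, and 70 lower and 34 higher at an adjusted p under 0.05. Between the combinatorial treatment and 5-Aza-CdR the correlation was -0.114. The 5 genes that fell again with 5-Aza-CdR were 6 with the replicate block and 6 with the numbers of the 5-Aza-CdR arrays crossed, an alternative chosen after seeing the data. They were 8 with all 24 arrays, 11 with the robust spread, 10 with bright probes only and 9 with the T24 and HL60 arrays in the fit, the last also chosen after seeing the data.

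Leaving out each array in turn gave 23 to 40 lower and 0 to 1 higher probes at the methods' limits, 2 to 190 lower and 0 to 86 higher at an adjusted p under 0.05, and 4 to 7 genes that fell again. The 40 came without clorgyline replicate 1. Where an array was left out its group kept 1 array, assumed to vary like the other groups. Of 41 named genes at an adjusted p under 0.05, 38 lost the call without control replicate 1, 39 without control replicate 2, 29 without clorgyline replicate 1, 26 without clorgyline replicate 2, 32 with all 24 arrays and 11 with the replicate block. None of the 41 reversed under the 16 or 17 alternatives that could be run for it. Leaving out an array could not reverse a sign, since the 2 groups did not overlap in any called probe. The other alternatives left the difference between the means unchanged or nearly so. The kept sign is therefore no test of these calls. The medians of the small noncoding RNAs, the immediate early genes, the ATF4 targets, DNA replication and mitosis and the heat shock proteins kept their sign under every alternative run, but moved in size, and were largest with dim members left out. They ran from -0.58 to -0.06, -0.34 to -0.10, -0.16 to -0.03, 0.10 to 0.18 and 0.05 to 0.22 in that order. Signal over background limits the differences of dim probes.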
